A study of Anopheles arabiensis with 20 samples.

Results

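The mitochondrial cytochrome b gene, CYTB (ASK67_gp02), was followed through 20 RNA sequencing libraries of the malaria mosquito *Anopheles arabiensis*. It was taken by its identifier, as 1 of the 13867 genes in the deposited count table and 1 of 13 mitochondrial protein-coding genes. For each library, 10 unfed females aged 3 to 5 days were pooled whole, and their polyA-selected RNA was read from both ends with 125 bp reads. The field populations, from Asendabo (ASN), Chewaka (CHW) and Tolay (TOL) in Ethiopia, were collected as larvae and raised to adults at their sites, and the labels describe them as resistant to deltamethrin and DDT. SEK (Sekoru, Ethiopia) and MOZ (Mozambique) are laboratory strains labelled susceptible and raised in a similar way. Each of the 5 groups had 4 biological replicates, and the labels name no insecticide treatment of the sampled females. The titles name 2 sequencing runs of 10 libraries. ASN, TOL and CHW replicates 1 and 2 were in the first run, and SEK, MOZ and CHW replicates 3 and 4 in the second, so that the run cannot be told apart from the kind of group outside CHW.

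Cytochrome b is the heme-carrying core subunit of respiratory complex III (the cytochrome bc1 complex), which passes electrons from ubiquinol to cytochrome c and moves protons across the inner mitochondrial membrane. It is the only complex III subunit that animal mitochondria encode themselves. The other mitochondrial protein-coding genes belong to complex I (the ND genes), complex IV (the COX genes) and ATP synthase (ATP6 and ATP8). Insect mitochondria transcribe their genome as long precursors that are cut mostly at transfer RNAs, and the messengers are polyadenylated. In the RefSeq table of the assembly AaraD3, CYTB lies between ND6, with which it shares 1 base, and the transfer RNA gene ASK67_gt20, after which ND1 follows.

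CYTB was among the most abundant transcripts of the field populations and of the strain SEK, and least abundant in MOZ. Its counts took 2.68% of all counts in ASN replicate 1, 1.77% in replicate 2, 2.66% in replicate 3 and 2.73% in replicate 4. In TOL the share was 3.17%, 2.85%, 2.81% and 2.12% in replicates 1 to 4. Every ASN and TOL library therefore lay above every library of the other groups. In CHW the share was 0.825%, 1.07%, 1.40% and 0.414% in replicates 1 to 4. SEK lay inside that range, at 0.955%, 1.09%, 0.620% and 0.799%. In MOZ it was 0.419%, 0.107%, 0.341% and 0.186%, so that only CHW replicate 4, just under MOZ replicate 1, reached down to the MOZ libraries.

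The group means were 2.74% ± 0.442 in TOL, 2.46% ± 0.462 in ASN, 0.927% ± 0.415 in CHW, 0.866% ± 0.203 in SEK and 0.263% ± 0.142 in MOZ, given here and throughout as mean ± SD with n = 4. In this order, TOL and ASN did not differ beyond their spread (exact 2-sided permutation p = 0.4, adjusted over 10 pairs 0.444), nor did CHW and SEK (exact p = 0.8, adjusted 0.8). The shares rested on 13087 counts in MOZ replicate 2 to 638239 in TOL replicate 1, and the 95% Wilson interval of a share was at most 0.0153 percentage points wide, for counting error alone. Ordered by counts, CYTB ranked 3 or 4 among all genes in every ASN and TOL library, 4 to 12 in CHW and 3 to 7 in SEK. In MOZ it ranked 11, 143, 22 and 74 in replicates 1 to 4. In pools of whole animals, fewer mitochondria or fewer cells rich in them cannot be told apart from less CYTB RNA in each.

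**Figure D1:**
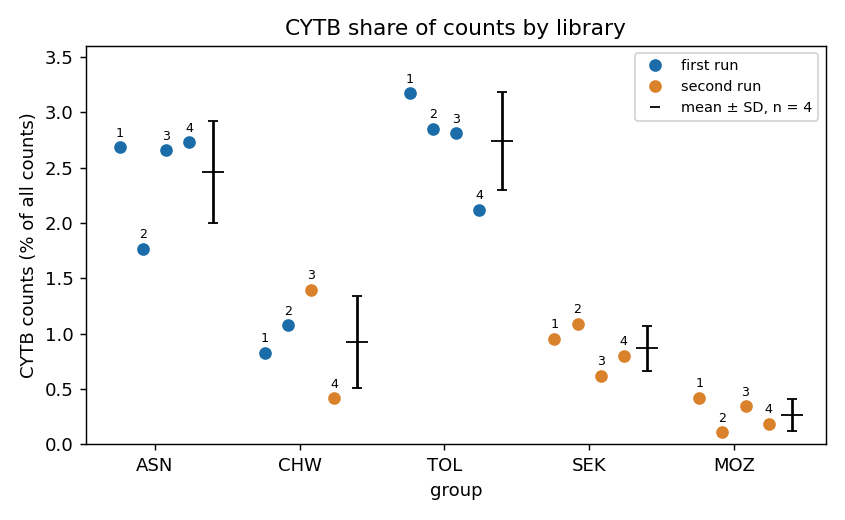
CYTB counts as a percent of all counts (y axis) in each library, by group (x axis); numbers are replicates, colours the sequencing run, and bars the mean ± SD of 4 libraries. The ASN and TOL libraries sit between 1.77% and 3.17%, above all CHW, SEK and MOZ libraries, and CHW and SEK overlap.

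In the share of counts, 7 of 10 pairs of groups did not overlap and reached an exact permutation p of 0.0286, the smallest that 4 libraries against 4 can give (adjusted over the 10 pairs 0.0408). Adjusted over all 30 tests of the share and the 2 ratios described below, none of them passed (0.0612). These were ASN and TOL against each of the other groups, and SEK against MOZ. Among all 11018 genes tested, the same order without overlap was found in 4.22% for ASN above SEK, 5.45% for TOL above SEK, 8.1% for ASN above MOZ and 5.94% for TOL above MOZ. It was found in 11.9% for SEK above MOZ, 3.94% for ASN above CHW and 2.99% for TOL above CHW. CHW exceeded MOZ by 0.664 percentage points, with an overlap of the 2 libraries named above (exact p = 0.0571, adjusted 0.0714).

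In a fit across all genes, edgeR's quasi-likelihood test with Benjamini-Hochberg adjustment, CYTB was called in 9 of 11 comparisons. A call required an adjusted p under 0.05 and at least a 2-fold change. Between the mean of the 3 populations and the mean of the 2 strains its log2 fold change was 2.27 (standard error, SE, 0.277, with an edgeR adjusted p of 5.51e-06), a 4.83-fold higher level. In that comparison 3.91% of genes were called higher, and the libraries overlapped, since CHW lay at the level of SEK. The comparisons that follow share libraries and are not independent of each other.

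Relative to the Ethiopian strain SEK, the log2 fold change of CYTB was 1.79 (SE 0.404, edgeR adjusted p 0.0036) in ASN, where 4.87% of genes were called higher. It was 2.09 (SE 0.408, edgeR adjusted p 0.000929) in TOL, where 5.84% were. For CHW it was 0.24 (SE 0.392, edgeR adjusted p 0.748) and not called, as 2.03% of genes were called higher. Without CHW replicate 3, the CHW library with the most CYTB, the value for CHW was -0.08, so it had no steady direction.

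Against MOZ the change of CYTB was larger in each population. Its log2 fold change was 3.59 in ASN (SE 0.434, edgeR adjusted p 3.18e-06), 3.89 in TOL (SE 0.440, edgeR adjusted p 2.33e-06) and 2.04 in CHW (SE 0.407, edgeR adjusted p 0.000849). The background of genes called higher was 8.28%, 7.73% and 4.68% in the same order. The strains themselves differed, with CYTB 3.48-fold higher in SEK than in MOZ (log2 fold change 1.80, SE 0.404, edgeR adjusted p 0.00159), where 6.29% of genes were called higher.

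Among the field populations, CYTB was higher in ASN than in CHW by 1.54 (SE 0.401, edgeR adjusted p 0.0141) and higher in TOL than in CHW by 1.84 (SE 0.404, edgeR adjusted p 0.0065), on the log2 scale. In these comparisons 2.82% and 2.72% of genes were called higher. Between TOL and ASN the log2 fold change was 0.30 (SE 0.392, edgeR adjusted p 0.726) and not called, with a background of 0.345%. Neither call against CHW passed when a fold of more than 1.5 was required, with edgeR adjusted p-values of 0.157 for ASN and 0.0655 for TOL.

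The runs could be compared within CHW alone. There CYTB took 0.825% and 1.07% of counts in the first run and 1.40% and 0.414% in the second, and its log2 fold change between the runs was -0.01 (SE 0.568, edgeR adjusted p 1). The estimate rested on single libraries, at -1.32 without CHW replicate 3 and 0.64 without CHW replicate 4. Within the first run the CYTB share exceeded that of CHW by 1.51 percentage points in ASN and by 1.79 in TOL (exact permutation p = 0.0667, the smallest possible for both). In the second, CHW was 0.642 points above MOZ (exact permutation p = 0.133) and 0.0396 points above SEK (exact permutation p = 0.867). Fitted within the first run, CYTB was higher than in CHW by 1.55 in ASN (edgeR adjusted p 0.0094) and by 1.83 in TOL (edgeR adjusted p 0.00669). Fitted within the second run, CHW was above MOZ by 2.02 (edgeR adjusted p 0.0339) and differed from SEK by 0.23 (edgeR adjusted p 0.879). With the run as a covariate, which CHW alone identifies, the fold changes hardly moved but the edgeR adjusted p rose to 0.13 for ASN vs SEK, 0.063 for TOL vs SEK and 0.0766 for ASN vs CHW.

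COX1, the catalytic core of complex IV, gives a reference inside the same libraries that needs no scaling. The log2 ratio of CYTB to COX1 counts was -0.92, -1.36, -0.99 and -0.91 in ASN replicates 1 to 4, and -0.86, -1.07, -0.95 and -1.05 in TOL. SEK was the tightest group, at -0.99, -1.05, -1.07 and -0.95. The ratio was lowest in CHW, at -1.11, -1.33, -1.57 and -1.56, and highest in MOZ, at -0.99, -0.65, -0.80 and -0.73. CHW lay below all TOL, SEK and MOZ libraries, and overlapped ASN through ASN replicate 2.

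The mean log2 ratio to COX1 was -1.39 ± 0.220 in CHW, -1.05 ± 0.210 in ASN, -1.02 ± 0.0541 in SEK, -0.98 ± 0.0960 in TOL and -0.79 ± 0.145 in MOZ. Divided by gene length, CYTB stood at 0.508 of the COX1 level in CHW, 0.654 in SEK and 0.767 in MOZ. CHW differed from SEK by -0.38, TOL from CHW by 0.41 and CHW from MOZ by -0.60 in the log2 ratio. Each of these 3 pairs reached the smallest exact permutation p of 0.0286, but none of the 10 pairs passed adjustment (adjusted 0.0952). Within the second run CHW replicates 3 and 4 lay below SEK by -0.55 and below MOZ by -0.78, and within the first run TOL was above CHW replicates 1 and 2 by 0.24. Each had an exact permutation p of 0.0667, the smallest that 4 libraries against 2 allow. Within CHW, both libraries of the first run lay above both of the second, by 0.35 on average (exact permutation p = 0.333, the smallest possible), about as much as CHW differed from SEK. ASN was above CHW by 0.18 within the first run (exact permutation p = 0.4), against 0.35 over all libraries of both. The whole span of the group means of this ratio, 0.603, was small beside the span of 4.03 between TOL and MOZ in the mean log2 CPM of CYTB itself. MOZ was highest with COX1 alone as reference. With COX1, COX2 and COX3 summed, CHW differed from MOZ by -0.31 and from SEK by -0.38 (exact permutation p = 0.0857 and 0.0286). With the other 12 mitochondrial protein-coding genes summed, these were -0.20 and -0.37 (exact permutation p = 0.0857 and 0.0286). With either sum SEK had the highest mean, at -1.82 and -1.95, beside -1.89 and -2.12 in MOZ, and CHW stayed lowest.

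ND6, a complex I subunit and the neighbour of CYTB, did not follow it. The log2 ratio of CYTB to ND6 counts was 9.47, 7.98, 9.41 and 9.81 in ASN replicates 1 to 4, and 9.70, 8.26, 8.96 and 9.03 in TOL. It was 6.27, 7.55, 8.37 and 6.30 in CHW, 6.44, 6.57, 6.27 and 6.56 in SEK, and 6.33, 5.01, 5.79 and 5.60 in MOZ. ASN and TOL overlapped with CHW through CHW replicate 3 and lay above all SEK and MOZ libraries. ND6 itself took between 0.00304% and 0.0115% of counts in all libraries.

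The CYTB to ND6 ratio was higher by 2.71 in ASN and 2.53 in TOL than in SEK, and by 3.48 and 3.30 than in MOZ, on the log2 scale. These 4 pairs reached the smallest exact permutation p of 0.0286, and none of the 10 pairs passed adjustment (adjusted 0.0714). In the fit across genes ND6 stood at 0.01 between populations and strains (log2, SE 0.219, edgeR adjusted p 0.971). It was called in SEK vs MOZ alone among the 11 comparisons, where it was 1.14 higher in SEK (SE 0.343, edgeR adjusted p 0.0125) beside 1.80 for CYTB. Within the first run the ratio was 2.26 higher in ASN and 2.08 higher in TOL than in CHW (exact permutation p = 0.0667, the smallest possible), and within the second run 0.87 higher in CHW than in SEK (exact permutation p = 0.267). How reads across the border of both genes were counted is not given in the sources used here.

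**Figure D2:**
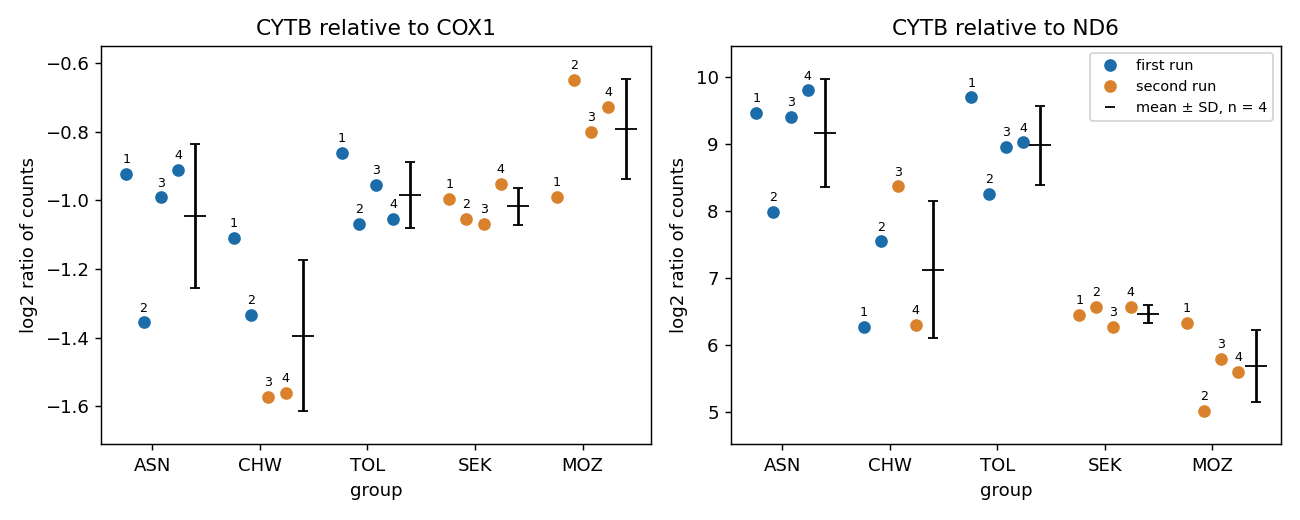
Log2 ratio of CYTB counts to COX1 counts (left) and to ND6 counts (right) in each library, by group; numbers are replicates, colours the sequencing run, bars the mean ± SD of 4 libraries. The y axes differ: the COX1 ratio runs from -1.57 to -0.65, and the ND6 ratio from 5.01 to 9.81.

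Set beside the other mitochondrial protein-coding genes, CYTB changed by about as much as the middle of them. In the populations 12 of the 13 genes were called above the strains, beside 3.91% of all genes. The median log2 fold change over the 13 was 2.48, against -0.01 over all genes. CYTB, at 2.27, had 7 of the other 12 genes above it and 5 below. The COX genes were at 2.48 (COX1), 2.05 (COX2) and 2.59 (COX3). ATP6, a proton channel subunit of ATP synthase, was at 3.08.

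Against SEK, 10 of the 13 genes were called higher in ASN and 10 in TOL, and none in CHW, beside 4.87%, 5.84% and 2.03% of all genes. With the run as a covariate 2 were called in ASN and 6 in TOL. In both directions together, that fit called 526 of all genes in ASN, in place of 840. In TOL it called 764 of all genes, in place of 880. In ASN vs SEK the 3 not called were ND6 at -0.84, ATP8 at 0.16 and ND4L at 0.28. In SEK vs MOZ 10 were called higher in SEK, beside 6.29% of all genes. There CYTB, at 1.80, had 3 of the other 12 above it, namely ATP8 at 3.15, COX1 at 1.97 and ND4L at 1.96. ATP8 rested on few counts, with 5.41 CPM per kb in MOZ. Within the populations 8 of 13 were called higher in ASN than in CHW, 10 higher in TOL than in CHW and none in TOL vs ASN, beside 2.82%, 2.72% and 0.345% of all genes. With the run as a covariate 3 were called in ASN vs CHW and 5 in TOL vs CHW. How many of all genes that fit called in these comparisons is not given here.

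The 2 mitochondrial ribosomal RNA genes differed in this respect. ASK67_gr01 rose with CYTB between strains and populations, by 1.87 (SE 0.342, edgeR adjusted p 0.000288). ASK67_gr02, the most abundant of the mitochondrial genes per kb in every group, stood at 0.54 in log2 (SE 0.168, edgeR adjusted p 0.0147), under the 2-fold threshold. The log2 ratio of CYTB to ASK67_gr02 counts was -2.72 ± 0.293 in ASN, -2.71 ± 0.105 in TOL, -4.17 ± 0.793 in CHW, -3.93 ± 0.0814 in SEK and -5.97 ± 1.15 in MOZ. Of the 22 transfer RNA genes, 12 had no count in any library and none had more than 65 in a library.

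**Figure D3:**
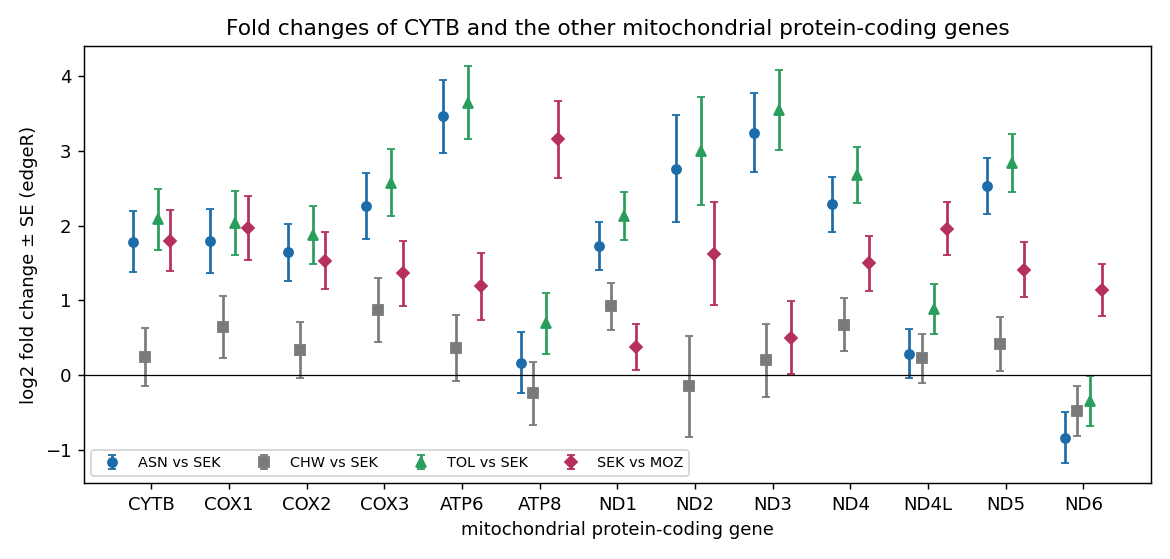
Log2 fold change ± SE from edgeR (y axis) of the 13 mitochondrial protein-coding genes (x axis) in ASN, CHW and TOL against SEK and in SEK against MOZ. CYTB lies at 1.79, 0.24, 2.09 and 1.80, near COX1 and COX2, and ND6 lies at -0.84, -0.48, -0.35 and 1.14, the lowest of the 13 in the 3 comparisons with SEK but not in SEK against MOZ.

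Per unit of length, CYTB stood behind the COX genes and ahead of ATP6 and every ND gene. Its level per kb was 24122 ± 3894 CPM in TOL and 21662 ± 4070 in ASN. It was 8170 ± 3653 CPM per kb in CHW, 7630 ± 1786 in SEK and 2319 ± 1252 in MOZ. CYTB ranked 4 of 13 in 18 of the 20 libraries and 3 in the others. Its part of all mitochondrial protein-coding counts ran from 15.4% in CHW replicate 3 to 21.5% in SEK replicate 4. All SEK libraries, from 19.9% up, lay above all ASN, CHW and TOL libraries, of which the highest had 19.1%. SEK against each population reached the smallest exact permutation p of 0.0286, but did not pass adjustment (adjusted over 10 pairs 0.0952). The group means were 16.7% ± 1.47 in CHW, 18.1% ± 1.18 in ASN, 18.5% ± 0.558 in TOL, 18.7% ± 0.962 in MOZ and 20.6% ± 0.674 in SEK. MOZ, with the lowest CYTB level, thus lay below SEK in this part and close to TOL and ASN.

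Likeness to CYTB was measured for 11017 genes as the SD, over the 20 libraries, of the log2 ratio of a gene's CPM to that of CYTB. A gene that follows CYTB in every library has an SD near 0. A gene whose level does not change has 1.60, the SD of the log2 CPM of CYTB itself. The median gene had 1.64. The closest were COX2 at 0.233, COX1 at 0.245 and COX3 at 0.259, then the complex I genes ND4 at 0.337 and ND5 at 0.460. With the group means taken out, these SDs were 0.170, 0.159, 0.157, 0.306 and 0.423, so the COX genes also followed CYTB between the replicates of a group, where the SD of CYTB alone was 0.642.

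COX3 kept the closest pace within groups, but its ratio to CYTB set SEK apart. The log2 ratio of CYTB to COX3 counts lay between 0.365 and 0.600 in SEK and between -0.399 and 0.117 in all other libraries, a description made after the values were seen and with no test. ND1, next to CYTB beyond a transfer RNA gene and read from the opposite strand in insects, followed CYTB less closely, with an SD of 0.713. Its ratio was lowest in MOZ, where CYTB exceeded ND1 by 2.66 ± 0.662 in log2 counts, against 4.24 ± 0.0875 in SEK and 4.29 ± 0.238 in ASN. ND2 had 1.15, and 1.24 with the group means taken out. ND6 had 1.54, near the 1.60 of a gene whose level does not change.

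The first nuclear gene in this order was AARA007248, at rank 8 with an SD of 0.714, and the next was AARA014441 with 0.762. With the group means taken out these were 0.731 and 0.510, beside 0.642 for CYTB alone. Such an SD also holds the nuclear gene's own spread. By itself it does not tell whether AARA007248 followed CYTB between the replicates of a group. The library values went both ways. Within ASN, replicate 1 had the most CYTB but the least AARA007248, at 3.24 CPM. Within TOL, both genes were highest in replicate 1 and lowest in replicate 4. AARA007248 stood at 14.8 ± 4.02 CPM in TOL, 11.2 ± 6.68 in ASN, 4.77 ± 0.742 in SEK, 3.77 ± 1.15 in CHW and 1.40 ± 1.23 in MOZ, the order of CYTB with CHW and SEK exchanged. AARA014441 stood at 4.42 ± 1.27, 2.20 ± 0.569, 0.588 ± 0.158, 1.26 ± 0.486 and 0.517 ± 0.365 CPM in the same order of groups. Both are low transcripts, and the libraries share the differences in mitochondrial share described above.

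**Figure D4:**
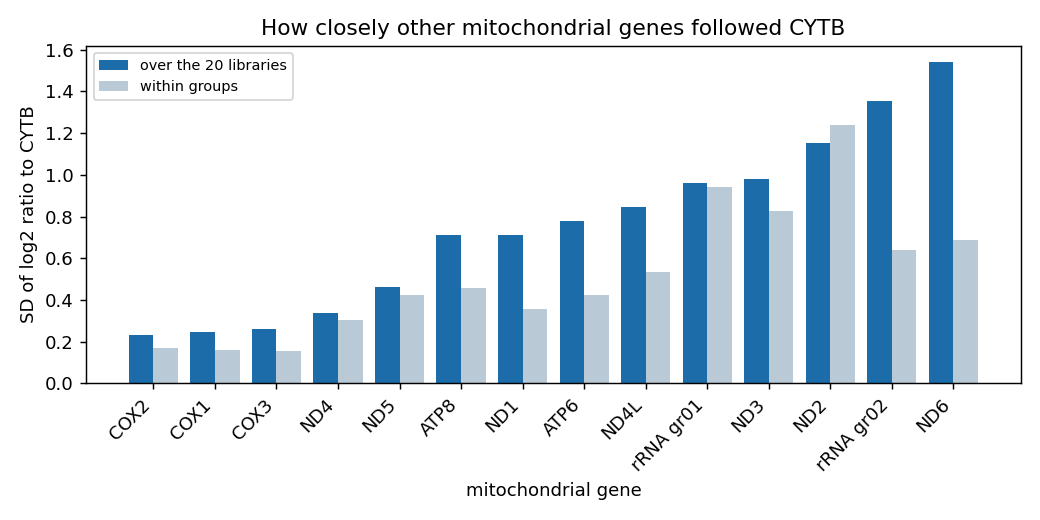
SD of the log2 ratio of each mitochondrial gene to CYTB (y axis) over the 20 libraries (dark bars) and within groups (light bars), for the other 12 protein-coding and the 2 ribosomal RNA genes (x axis, in order of the dark bars). The COX genes are lowest, at 0.233 to 0.259, and ND6 is highest, at 1.54.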

How the data were processed

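The authors deposited 1 table of counts, a whole number for each gene in each library, and its unequal column sums show no normalization. Per the labels' protocols the libraries were stranded and the reads trimmed by the sequencing facility. The submitters' processing notes name FastQC 0.11.4, HISAT2, Cufflinks, SAMtools 1.5 and HTSeq 0.9.0, without their roles. The build, the annotation and the treatment of reads shared by overlapping genes or nuclear copies of mitochondrial sequence were not given in the sources used here. The name of each of the 20 columns matched a sample title. Totals ran from 12205530 to 21516390 counts. Symbols and lengths of the 37 mitochondrial identifiers came from the RefSeq table of AaraD3, which matched 0 nuclear identifiers, so no cell type or pathway markers among nuclear genes could be used.

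Counts were tested with edgeR 4.0.16 in R 4.3.3 (filterByExpr, TMM scaling, quasi-likelihood, 5 group means, all 20 libraries). TMM is relative to the bulk of genes. SEs are the log2 fold change divided by the square root of F. Shares and ratios were tested with exact 2-sided permutation tests, adjusted over 10 pairs for each of 3 measures. The ratio to ND6 used a pseudocount of 0.5, and log2 CPM a prior count of 2. The fit and the permutation test were tested on simulated data. No pair of replicates agreed within sampling noise (chi-square per degree of freedom at least 26.7). CYTB, the reference genes and the lists were chosen with earlier results of these data known. Genes named for likeness are the 5 with the smallest SD and the 2 nuclear ones with the smallest SD. Alternatives included DESeq2 1.42.0 and limma 3.58.1 with voom, other scalings, and leaving out libraries. Leaving out ASN replicate 2 and TOL replicate 2 together was chosen after seeing the data.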

Additional observations from a re-analysis of the deposited data

Results flagged for a closer look

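ASN replicate 2 had a CYTB share of 1.77%, against 2.66% to 2.73% in the other ASN libraries. The gap to the nearest library was 0.925 of the whole range of the group, which exceeds the 95% critical value of Dixon's test. The test was made on 25 sets of 4 libraries, and chance alone marks about 1 set in 20. The CYTB to COX1 ratio of the same library was the lowest of its group, at -1.36, and so was its mitochondrial protein-coding share, at 10.8%. With ASN replicate 2 and TOL replicate 2 left out together, the log2 fold change of CYTB was 1.92 for ASN vs SEK (edgeR adjusted p 0.00709), 1.67 for ASN vs CHW (edgeR adjusted p 0.024) and 2.31 between populations and strains (edgeR adjusted p 2.34e-05).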

How the results depend on the processing

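The CYTB calls against MOZ, those for SEK vs MOZ and those between populations and strains held under every alternative fit that was run. For populations against strains the log2 fold change ran from 1.95 with library totals alone, a setting that moved the median of all genes by -0.32, to 2.40 without MOZ replicate 1. With the run as a covariate the values were 1.78 for ASN vs SEK, 2.08 for TOL vs SEK and 1.54 for ASN vs CHW, none of them called. That fit called 526 genes for ASN vs SEK in place of 840 and 764 for TOL vs SEK in place of 880. For ASN vs MOZ it called 1107 in place of 1737. It called 2, 6, 3 and 5 mitochondrial protein-coding genes for ASN vs SEK, TOL vs SEK, ASN vs CHW and TOL vs CHW, in place of 10, 10, 8 and 10. The cause was not tested. With library totals alone 1352 genes were called for TOL vs SEK in place of 880. A test against a fold of 1.5 left 1.54 for ASN vs CHW and 1.84 for TOL vs CHW without a call. Leaving out 1 library gave -0.0761 (without CHW replicate 3) to 0.487 for CHW vs SEK and -1.32 to 0.64 between the runs within CHW. No call of a CYTB fold change ended when 1 library was left out.

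With CYTB as a percent of mitochondrial protein-coding counts, a different quantity, the differences were -2.48 points for ASN vs SEK, -3.87 for CHW vs SEK, -2.04 for TOL vs SEK, -0.633 for ASN vs MOZ, -2.02 for CHW vs MOZ and -0.198 for TOL vs MOZ. They were 1.85 for SEK vs MOZ, 1.39 for ASN vs CHW and 1.83 for TOL vs CHW, and none passed (exact permutation, adjusted p at least 0.0952). On a log2 scale the share of CHW vs SEK differed by -0.0025. Without ribosomal RNA in the denominator CHW exceeded MOZ by 0.793 points, and as a percent of nuclear counts by 0.88, both past the threshold (exact permutation, adjusted p 0.0357). Adjusted over the 30 tests of all 3 measures, none of the exact tests passed (smallest 0.0612).

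With COX1, COX2 and COX3 summed as reference, the log2 ratio differed by -0.0703 for TOL vs SEK, 0.000682 for TOL vs MOZ and 0.071 for SEK vs MOZ. With the other 12 genes summed it differed by -0.19 for TOL vs SEK and 0.17 for SEK vs MOZ. With COX1 alone as reference, the log2 ratio within a run differed by -0.55 for CHW vs SEK and 0.24 for TOL vs CHW.

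The labels give replicate numbers no shared origin, and only 8 of 40 same-numbered pairs had a correlation of deviations over 0.1, so the numbers were not taken to pair the libraries. That 12 of 20 libraries correlated best with their own number, and that the highest correlation was 0.53, is a hint of pairing from the data, not from the design. With the replicate block CYTB stood at 2.26 (log2) between populations and strains, and no CYTB call changed. An exact test over 4 pairs cannot give less than 0.125.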
